A study of Homo sapiens with 6 samples.

Results

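The WNT pathway genes described here are the ligand WNT3, the secreted inhibitors SFRP1, SFRP2 and DKK1, the receptor FZD7, the feedback inhibitor AXIN2 and the DNA-binding factors LEF1, TCF7, TCF7L1 and TCF7L2. They are 10 of the 20033 protein-coding genes of the RefSeq table of GRCh38 used for the files, and every ATAC-seq summit inside them or within 20 kb of either end was taken. ATAC-seq marks open chromatin by the cuts of a transposase, and a summit is the position of strongest signal in a peak called in 1 library. Summits of all libraries within 250 bp of a better-scored centre were joined into a locus, and 118 of 123131 loci lay at the 10 genes.

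All 6 libraries came from H1, a line of human pluripotent stem cells, infected with virus that carried a short hairpin RNA and then selected with puromycin. Of these, 2 libraries carried the hairpin shHNRNPU #1, 2 carried shHNRNPU #2 and 2 carried the control hairpin shLUC against luciferase, so infection and selection were shared by every group. HNRNPU encodes an RNA-binding protein of the nucleus, and the comparison asks whether open chromatin at the WNT genes differed when it was targeted. The files hold no measure of HNRNPU itself, so the knockdown could not be checked from them, and nothing in the labels says whether repeats were separate cultures.

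WNT ligands bind Frizzled receptors and LRP co-receptors, which stops the destruction of beta-catenin by a complex built on AXIN proteins. Beta-catenin then enters the nucleus and joins TCF and LEF factors on DNA, and AXIN2 is among the genes that this switches on, which damps the signal. SFRP proteins bind the ligands and DKK1 blocks the co-receptors, and in pluripotent cells TCF7L1 is known mainly as a repressor while WNT signals promote exit towards mesoderm.

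The libraries held 52168 to 63519 summits, and the score of a summit, the −log10 of its peak's q-value, had a median of 6.91 to 8.43. Scores were compared as percentiles, the place of a summit's score among all summits of its own library. Read depth is unknown, so the absence of a summit says only that no peak was called. As a check of the cells, 6 pluripotency genes (POU5F1, SOX2, NANOG, LIN28A, DNMT3B and SALL4) each had a summit within 2000 bp of an end in all 6 libraries. TDGF1 was also planned as a pluripotency gene but was not counted. Of 6 genes of other cell types, ALB, PTPRC, INS and HBB had none in any library, CD3E had one in 4 libraries and MYOD1 in all 6.

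RefSeq promoter windows (GRCh38.p14, 250 bases before and 50 after a start site) were found for 7 of the 10 genes, with 10 start sites among them. The 250 bases before the start are shown 5′ to 3′ for 4 genes with summits there, to show where those summits lay. These are WNT3 (minus strand, chr17:46818693-46818942), SFRP2 (minus strand, chr4:153789084-153789333), TCF7 (plus strand, chr5:134115363-134115612) and TCF7L1 (plus strand, chr2:85133142-85133391). Capitals run from the summit farthest upstream to the one nearest the start.
WNT3: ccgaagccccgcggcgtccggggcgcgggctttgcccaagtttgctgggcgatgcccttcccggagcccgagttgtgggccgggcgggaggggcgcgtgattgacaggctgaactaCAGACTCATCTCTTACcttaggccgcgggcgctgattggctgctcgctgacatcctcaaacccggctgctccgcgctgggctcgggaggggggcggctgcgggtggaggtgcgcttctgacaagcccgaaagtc
SFRP2: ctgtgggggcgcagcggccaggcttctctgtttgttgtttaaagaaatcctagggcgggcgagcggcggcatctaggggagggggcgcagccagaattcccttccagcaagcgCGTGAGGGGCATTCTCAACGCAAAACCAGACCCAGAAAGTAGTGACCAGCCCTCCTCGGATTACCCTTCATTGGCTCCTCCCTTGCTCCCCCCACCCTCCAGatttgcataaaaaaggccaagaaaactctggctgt
TCF7: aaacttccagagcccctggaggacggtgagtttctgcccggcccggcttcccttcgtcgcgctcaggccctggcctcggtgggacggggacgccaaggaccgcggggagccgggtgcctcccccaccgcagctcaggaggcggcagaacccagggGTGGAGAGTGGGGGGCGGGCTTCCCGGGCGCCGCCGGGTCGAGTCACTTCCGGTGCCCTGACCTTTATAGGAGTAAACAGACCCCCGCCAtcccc
TCF7L1: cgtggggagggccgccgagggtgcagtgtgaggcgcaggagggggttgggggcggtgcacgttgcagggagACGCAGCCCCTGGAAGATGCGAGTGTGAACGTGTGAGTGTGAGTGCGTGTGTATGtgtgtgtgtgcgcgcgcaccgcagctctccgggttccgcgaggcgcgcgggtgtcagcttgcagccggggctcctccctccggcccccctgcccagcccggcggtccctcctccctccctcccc

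The capitals span 16 bp at WNT3 with 3 summits, 102 bp at SFRP2 with 6, 90 bp at TCF7 with 3 and 55 bp at TCF7L1 with 5. The WNT3 stretch thus rests on 3 libraries, whereas at SFRP2 every library placed its summit in the window. The capitals leave out summits outside the printed bases, so except at SFRP2 they do not cover all 6 libraries. Counting each library's summit nearest the start, the distance from first to last was 867 bp at WNT3 and 1067 bp at TCF7. It was 101 bp at SFRP2 and 195 bp at TCF7L1. At SFRP2 the octamer ATTTGCAT, the motif of POU factors such as the product of POU5F1, begins at −35, next to the summit of shLUC repeat 2 at −36. The octamer, looked for on both strands after the sequences had been seen, is in 1.77% of 34943 RefSeq promoter windows of the same length, and SFRP2 was the only window of these genes to hold it.

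The DKK1 window is shown for its motifs, with the letters of TCF and LEF sites (CTTTGAA, the variant CTTTGAT, the variant CTTTGTA and the variant CTTTGTT, each searched on either strand) in capitals (plus strand, chr10:52314031-52314280).
DKK1: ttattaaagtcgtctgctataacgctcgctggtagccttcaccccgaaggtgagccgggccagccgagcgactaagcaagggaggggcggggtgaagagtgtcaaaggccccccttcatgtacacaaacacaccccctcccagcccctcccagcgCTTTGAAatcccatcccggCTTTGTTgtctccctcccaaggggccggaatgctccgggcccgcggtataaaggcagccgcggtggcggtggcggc

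At DKK1, CTTTGAA begins at −95 and another match, CTTTGTT, begins at −76. Single matches lay in the windows of WNT3 (CTTTGTT from base 20 counted from the start), of the second start of TCF7 (CTTTGTT on the opposite strand, −50) and of the second start of TCF7L2 (CTTTGTT, −133). Such letters occur in 13.8% of all promoter windows, and a match describes the sequence without showing that a factor binds. In base composition the main windows were rich in CpG at TCF7L1 (31 CpG, 74.3% GC) and WNT3 (28 CpG, 65.7% GC) and poor at LEF1 (9 CpG, 47% GC), against medians of 14 CpG and 58.7% GC over all windows.

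Summits at the 10 genes numbered 73 and 60 with shHNRNPU #1, 56 and 56 with shHNRNPU #2, and 58 and 64 with shLUC. The highest and the lowest totals both belonged to shHNRNPU libraries, and the means were 61.2 ± 8.06 (SD, n = 4) and 61 ± 4.24 (SD, n = 2). Of the 118 loci, 28 (23.7%) had a summit in all 6 libraries, against 20.7% of all loci, and 38 (32.2%) were called in 1 library, against 38%. Loci of 1 library were most frequent in shHNRNPU #1 repeat 1, with 11, and in shLUC repeat 2, with 9, and numbered 4 or 5 in the other libraries. They were weak, at a median percentile of 12.9, whereas the loci of all 6 libraries had a median of 74.4.

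By place, 28 loci lay within 2000 bp of an end of their gene, 63 lay deeper inside it and 27 lay farther outside. A summit in all 6 libraries was found at 25%, 23.8% and 22.2% of them, so that shared loci were spread over all 3 kinds of place. Shared loci near gene ends had a median percentile of 87.7, those deeper inside 66 and those farther outside 81.6. The map of loci along each gene shows this spread.

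**Figure D1:**
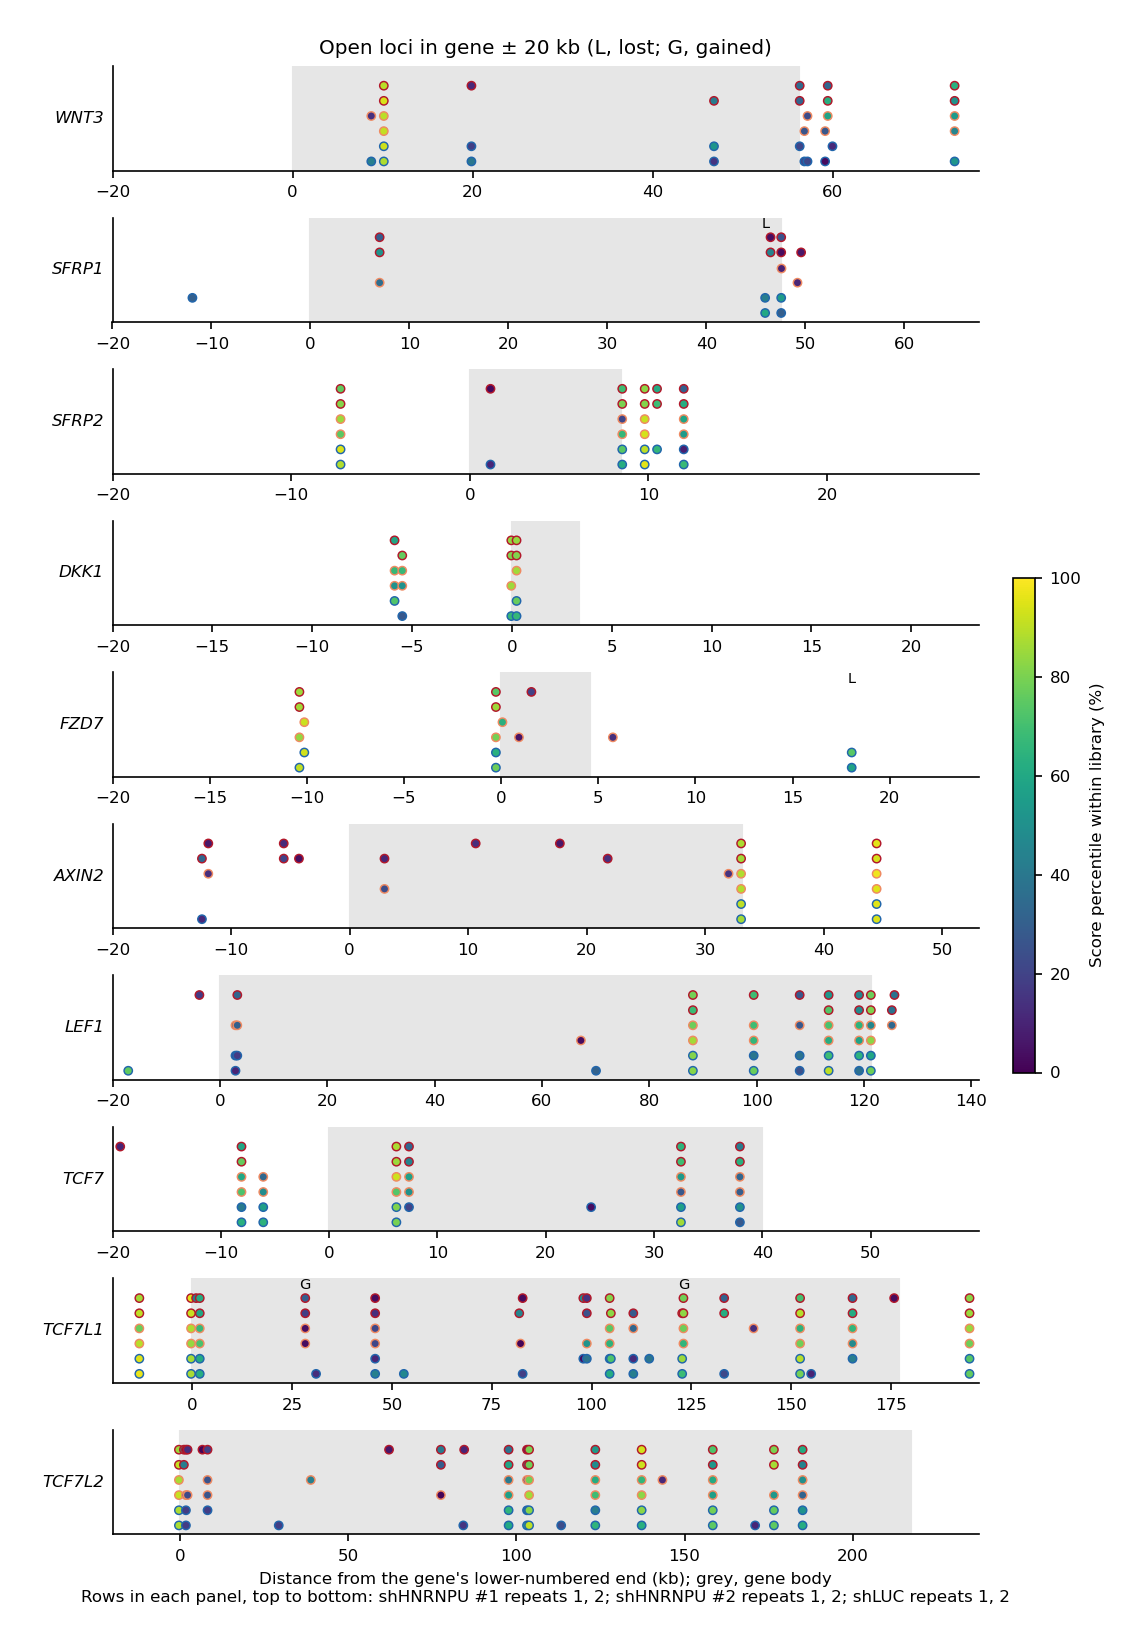
Position of each locus relative to the lower-numbered end of its gene in kb, 1 panel per gene, with the gene body in grey. Each row of points is 1 library, from shHNRNPU #1 repeat 1 at the top to shLUC repeat 2 at the bottom, a point marks a library with a summit within 250 bp of the locus (a summit between neighbouring loci is drawn at both), and fill gives the score percentile. L marks the 2 lost loci, at SFRP1 and FZD7, and G the 2 gained ones, both at TCF7L1.

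For each gene the summits were counted per library, and the groups were called apart where all 4 shHNRNPU libraries lay on 1 side of both shLUC libraries. None of the 10 genes was lower and none was higher in this sense, against 3.92% and 3.55% of 18729 protein-coding genes with a summit. The exact permutation test over the 15 ways to choose 2 control libraries, two-sided, cannot give a p below 0.133, so no single gene or locus could reach 0.05.

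**Figure D2:**
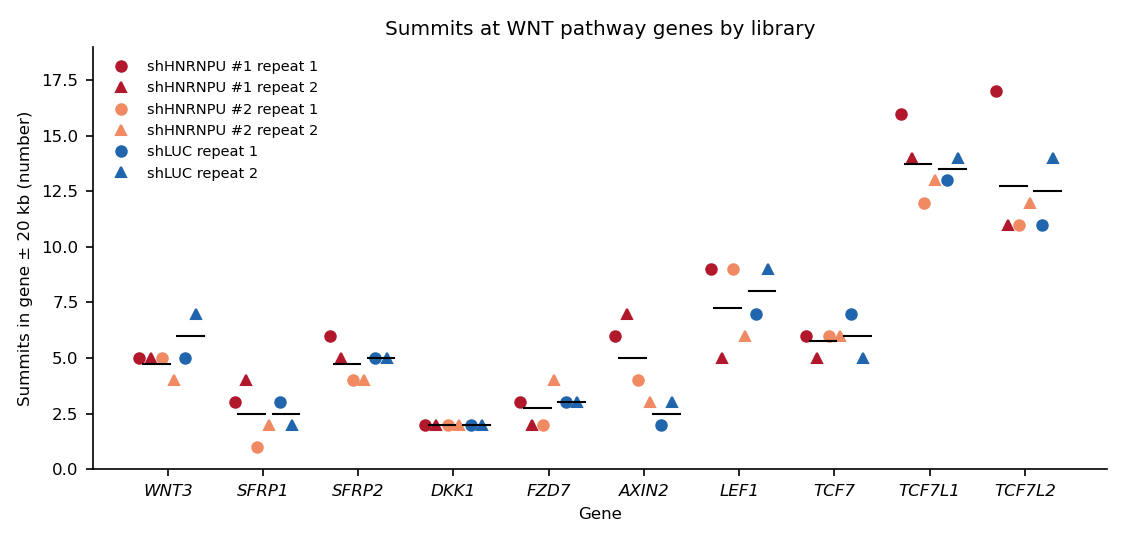
Number of summits inside each gene or within 20 kb of it (vertical axis) for the 10 genes in order of role, 1 point per library, with horizontal bars at the mean of the 4 shHNRNPU and of the 2 shLUC libraries. The groups overlap at every gene, and AXIN2 has the widest gap between means, 5 against 2.5.

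WNT3, the ligand, spans chr17:46762506-46818692 and had 11 loci. Its summits numbered 5 and 5 with shHNRNPU #1, 5 and 4 with shHNRNPU #2, and 5 and 7 with shLUC, a difference of −1.25 between the means (4.75 ± 0.5, SD, n = 4, against 6 ± 1.41, SD, n = 2, exact permutation p = 0.533). Counted in the gene body alone, the numbers were 2, 2, 2 and 1 against 3 and 4, which did not overlap, and within 5 kb they were 4, 4, 4 and 3 against 5 and 6. How many of all genes separate in these windows was not counted. With scores of at least 5 the difference over the whole window turned to 0.5.

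All 11 loci also lie inside LRRC37A2, which overlaps WNT3 in the table. A single WNT3 locus was called in all 6 libraries, inside the gene at 46772631, 10.1 kb from its lower end. Its percentiles were 89.8 and 93.9 with shHNRNPU #1, 89.8 and 90.8 with shHNRNPU #2, and 92.2 and 87.5 with shLUC, and the groups overlapped (91.1 ± 1.97 against 89.8 ± 3.33, exact permutation p = 0.667). The start of WNT3 was weakly open by comparison. Its nearest summits lay at −120, −134, −986 and −640 bp from the start in the shHNRNPU libraries and at −119 and −789 bp in shLUC, at percentiles of 34.4, 32.3, 23 and 26.6 against 20.5 and 21.8. Every shHNRNPU percentile there was above both shLUC ones, a comparison picked out after the values had been seen. The summits were not at 1 place but spread over 867 bp. Among loci called in all 6 libraries, which this start does not hold, 10.9% over the genome were higher by the same rule. A locus 17.3 kb beyond the start, which is inside WNT9B too, was called in every library but shLUC repeat 1, at percentiles of 45.5 to 63.3.

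SFRP1, a secreted inhibitor that binds WNT ligands (chr8:41261962-41309473), had 7 loci and none in all 6 libraries. Summits numbered 3 and 4 with shHNRNPU #1, 1 and 2 with shHNRNPU #2, and 3 and 2 with shLUC, and both groups averaged 2.5. The shHNRNPU #1 libraries were thus level with or above the shLUC libraries, and the shHNRNPU #2 libraries level with or below them. The locus at the higher end of the gene, 43 bp outside it, had percentiles of 25.1 and 2.94 with shHNRNPU #1, 9.25 in shHNRNPU #2 repeat 1 and no summit in repeat 2, against 54.8 and 29.7 with shLUC. Both shLUC values were above the 3 shHNRNPU values there, a comparison picked out after the values had been seen. Among loci called in all 6 libraries, which this locus was not, 13.9% over the genome were lower in every shHNRNPU library.

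A second SFRP1 locus was lost, which means that both shLUC libraries and none of the 4 shHNRNPU libraries had a summit within 250 bp. It lay inside the gene at 41307894, 1.58 kb from the higher end, with percentiles of 42.2 and 60.1 and scores of 6.33 and 9.09 in the shLUC libraries. The nearest shHNRNPU summit was 544 bp away, in a neighbouring locus that both shHNRNPU #1 libraries held at percentiles of 3.71 and 44.7. The loss therefore did not leave that end of the gene without summits in shHNRNPU #1.

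SFRP2, a second secreted inhibitor (chr4:153780591-153789083), was open in every library, with 4 of its 6 loci called in all 6. Summits numbered 6 and 5, 4 and 4, and 5 and 5 in the order shHNRNPU #1, shHNRNPU #2 and shLUC. The summit nearest the start, shown in capitals in the sequence, lay at −125, −43, −137 and −79 bp with shHNRNPU and at −104 and −36 bp with shLUC. Its percentiles were 69, 80, 20.8 and 66.6 against 74 and 62.2, and the low value was that of shHNRNPU #2 repeat 1.

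The strongest SFRP2 locus, 1.3 kb upstream of the start, kept percentiles of 81.6 to 93.5 with shHNRNPU and of 90 and 95.5 with shLUC. A locus 7.23 kb beyond the other end, at 153773358, had percentiles of 75.7, 81.5, 84.9 and 74.4 with shHNRNPU and of 94.5 and 88.1 with shLUC. All 4 shHNRNPU values were below both shLUC values, by −12.1 on average (79.1 ± 4.94, SD, n = 4, against 91.3 ± 4.54, SD, n = 2, exact permutation p = 0.133).

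DKK1, the inhibitor of the co-receptors (chr10:52314281-52317657), had exactly 2 summits in every library, 1 at the start and 1 upstream, in loci centred 5.49 and 5.88 kb from the start. At the start they lay at 6, 86, 232 and −31 bp with shHNRNPU and at 232 and 62 bp with shLUC, so 5 of 6 were downstream of it and none lay on the capital letters of the sequence. Percentiles there were 84.2, 81, 85.7 and 85.5 with shHNRNPU and 76.7 and 66.5 with shLUC, and deposited scores were 23.5, 19.7, 21 and 26 against 16 and 10.9. Every shHNRNPU percentile was above both shLUC percentiles, a comparison picked out after the values had been seen, and such a split gives the exact permutation test its smallest p, 0.133. The upstream summits showed no such order, at 58.6, 75.8, 67.1 and 51.1 against 72.5 and 27. The summits at the start were spread over 263 bp and belonged to neighbouring loci, none of them called in all 6 libraries. Among loci that were called in all 6, 10.9% over the genome were higher in every shHNRNPU library. The start of DKK1 also lies within 2000 bp of an end of PRKG1-AS1.

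FZD7, a Frizzled receptor abundant in pluripotent cells (chr2:202033855-202038441), had 8 loci. Summits numbered 3 and 2, 2 and 4, and 3 and 3, and the means were 2.75 ± 0.957 (SD, n = 4) and 3 with no spread (n = 2). With scores of at least 5 every shHNRNPU library had 2 and both shLUC libraries had 3. The difference of −0.25 turned to 0.75 within the gene body or 5 kb of it and to 1.25 within 50 kb.

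The lower end of FZD7 had a summit in every library, split between a locus 266 bp outside the gene (74.2, 85.3 and 79 in 3 shHNRNPU libraries, 63.6 and 77.5 in shLUC) and one 71 bp inside it (63 in shHNRNPU #2 repeat 1). A strong site 10.1 to 10.4 kb outside that end was likewise called in all libraries, at percentiles of 83.6 to 92.9. The lost locus of FZD7 lay 13.5 kb beyond the other end, at 202051902 inside LOC124906114, with percentiles of 74 and 58.1 and scores of 14.7 and 8.74 in shLUC. There the nearest shHNRNPU summit was 12294 bp away, whereas at SFRP1 it lay in the next locus.

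AXIN2, the feedback inhibitor and a widely used readout of WNT signalling (chr17:65528563-65561648), had the widest gap between group means of the 10 genes. Summits numbered 6 and 7 with shHNRNPU #1, 4 and 3 with shHNRNPU #2, and 2 and 3 with shLUC. Every shHNRNPU library was at or above the higher shLUC library, with 1 tie at 3, and the difference was 2.5 (5 ± 1.83, SD, n = 4, against 2.5 ± 0.707, SD, n = 2, exact permutation p = 0.267). The mean was 6.5 with shHNRNPU #1 and 3.5 with shHNRNPU #2, which share their controls.

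The gap came from weak loci. Both strong AXIN2 loci were called in all 6 libraries with nearly equal percentiles. At 65561598, 50 bp inside the higher end, these were 87.4, 85.8, 88.1 and 88.5 with shHNRNPU and 90 and 86.3 with shLUC. At 65573031, 11.4 kb outside that end, they were 95.5, 93.7, 97.4 and 95 against 95.7 and 94.2, the highest mean percentile of any locus at the 10 genes. The other 9 loci all held a shHNRNPU summit, 8 of them one of shHNRNPU #1 and 3 one of shHNRNPU #2, while 1 held a shLUC summit, and their percentiles ran from 3.54 to 32.9.

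With scores of at least 5 AXIN2 had 2, 3, 2 and 2 summits with shHNRNPU and 2 and 2 with shLUC, a difference of 0.25. With lists of one size, the best 52168 summits of each library, it had 3, 4, 4 and 3 against 2 and 2, and the groups no longer overlapped. They did not overlap either in the gene body (3, 3, 2 and 2 against 1 and 1), within 5 kb (3, 4, 2 and 2 against 1 and 1) or within 50 kb (7, 9, 6 and 5 against 3 and 4). These windows are nested, and the share of all genes called apart under these settings was not counted. Chromosome 17 as a whole held 4.36 ± 0.168% of a library's summits with shHNRNPU (SD, n = 4) and 3.8 ± 0.107% with shLUC (SD, n = 2). The share was higher in all 4 shHNRNPU libraries, and its part in the AXIN2 counts was not tested. WNT3 lies on the same chromosome, and its mean difference was −1.25. Of the chromosomes of the other genes, 2, 4 and 5 had lower shares in all 4 shHNRNPU libraries, 10 had a higher one and 8 overlapped.

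LEF1, a DNA-binding partner of beta-catenin (chr4:108047548-108168932), had 14 loci, 4 of them in all 6 libraries. Summits numbered 9 and 5 with shHNRNPU #1, 9 and 6 with shHNRNPU #2, and 7 and 9 with shLUC. Repeats of 1 hairpin differed by more than the group means did (7.25 ± 2.06, SD, n = 4, against 8 ± 1.41, SD, n = 2, exact permutation p = 0.8). Nearest the start, summits lay −405, −568, −339 and −416 bp from it with shHNRNPU and −338 and −381 bp with shLUC, at percentiles of 45.1, 47.3, 64.4 and 57.9 against 64.1 and 36.5. This start lies inside the gene's outer bounds, 2.63 kb from the higher end, and the antisense gene LEF1-AS1 has an end within 2000 bp.

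The strongest LEF1 locus was internal, 33.3 kb from the higher end, at percentiles of 78.8, 68, 77.7 and 86.2 with shHNRNPU and 81.5 and 81.8 with shLUC. A further internal locus at 7.96 kb from that end had 52.6, 72.9, 70.9 and 62.4 against 68.7 and 90.1, and the groups overlapped through shLUC repeat 1 (exact permutation p = 0.4). The highest percentile of a LEF1 locus that 1 library alone called was 75.4, in shLUC repeat 2, 17.1 kb beyond the lower end and inside HADH.

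TCF7, a member of the same factor family best known from T cells (chr5:134108218-134148210), had 8 loci, 4 of them in all 6 libraries. Summits numbered 6 and 5, 6 and 6, and 7 and 5. Its start at 134115613 had summits within 95 bp in 5 libraries, at −95, 24, −16 and 18 bp with shHNRNPU and −6 bp in shLUC repeat 1, while the nearest summit of shLUC repeat 2 was at −1043 bp. Percentiles of the locus at the start were 32.9, 44.8, 56.3 and 50.6 with shHNRNPU and 20.1 in shLUC repeat 1. All 4 shHNRNPU values were higher than this single control value, and the other control had no call there.

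The strongest TCF7 locus lay at −1180 bp from that start, at percentiles of 87.3, 84.9, 92.3 and 72.8 against 80.8 and 79.4. It is also inside VDAC1 and within 2000 bp of an end of that gene. The second start of TCF7, whose window holds a CTTTGTT match, had no summit within 2000 bp in any library. Of the 28 shared loci at the 10 genes, the largest negative and positive mean differences both stood at TCF7. They were −17.9 at 7.5 kb from its higher end (64.6, 69, 53.6 and 27 against 56.6 and 86.1) and 14.2 at 8.09 kb beyond its lower end, inside VDAC1 (58.6, 76.3, 59.5 and 71.8 against 41.3 and 63.5). The groups overlapped at both.

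TCF7L1, the repressive member of the family (chr2:85133392-85310387), had 26 loci, 6 of them in all 6 libraries. Summits numbered 16 and 14 with shHNRNPU #1, 12 and 13 with shHNRNPU #2, and 13 and 14 with shLUC, and means were 13.8 ± 1.71 (SD, n = 4) and 13.5 ± 0.707 (SD, n = 2). Summits nearest the start lay at −320, −179, −143 and −125 bp with shHNRNPU and at −125 and −127 bp with shLUC, the farthest being that of shHNRNPU #1 repeat 1. Percentiles there were 95.7, 91.6, 87.6 and 84.2 against 86.4 and 86.9, with both shHNRNPU #1 libraries above shLUC and the shHNRNPU #2 libraries around it.

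A TCF7L1 locus 13.3 kb upstream of the start, at 85120116, was the strongest of the gene with shLUC but not with shHNRNPU. Percentiles were 86.2, 90.6, 77.1 and 89.2 with shHNRNPU and 95 and 96.7 with shLUC, lower in all 4 shHNRNPU libraries by −10.1 on average (85.7 ± 6.07 against 95.9 ± 1.2, exact permutation p = 0.133), while the start averaged 89.8 with shHNRNPU and 86.7 with shLUC. Beyond the other end, a locus at 85328081 was higher in all 4, with 82.4, 85.1, 84.7 and 77.8 against 73.8 and 76, a difference of 7.59 (82.5 ± 3.36 against 74.9 ± 1.54, exact permutation p = 0.133). That locus is 17.7 kb from TCF7L1 and within 2000 bp of an end of TGOLN2.

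Both gained loci, called in all 4 shHNRNPU libraries and in neither shLUC library, were internal to TCF7L1. The first, at 85161676 and 28.3 kb after the start, was weak, with percentiles of 29.3, 18.5, 3.53 and 3.39 and the nearest shLUC summit 2711 bp away. The other, at 85256409, was strong, with 78.5, 83.1, 77.7 and 65.6, yet the nearest shLUC summit was 311 bp away. Both shLUC libraries had a summit in the locus next to it, centred at 85256098, at percentiles of 85 and 68.2, and the summit of shHNRNPU #1 repeat 2 lay within 250 bp of that centre as well and was counted in both loci. With match distances of 100 or 500 bp gained loci numbered 1.

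TCF7L2, the longest of the genes (chr10:112950247-113167678), had 23 loci, 7 of them in all 6 libraries. Summits numbered 17 and 11, 11 and 12, and 11 and 14, and shHNRNPU #1 repeat 1 stood apart from the rest of its group. Its first start had the most closely placed summits of all, at −250, −257, −267 and −265 bp with shHNRNPU and −263 and −264 bp with shLUC, a span of 17 bp. Percentiles there were 84.9, 91.3, 86.9 and 91.7 against 87.8 and 87.3.

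The second start of TCF7L2, 176 kb farther along, had a summit 170 to 192 bp downstream in 5 libraries, at percentiles of 79.7, 86.5 and 53.4 with shHNRNPU and 76.2 and 75 with shLUC. No summit was called within 2000 bp of it in shHNRNPU #2 repeat 1, and none within 2000 bp of the other, downstream start in any library. So of the 10 annotated starts, 7 had a summit within 2000 bp in all 6 libraries, 1 in 5 libraries and 2 in none, and where there were several starts the first was the one shared by all. The same share over all RefSeq starts was not counted. The plot of start-site summits gives the positions.

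**Figure D3:**
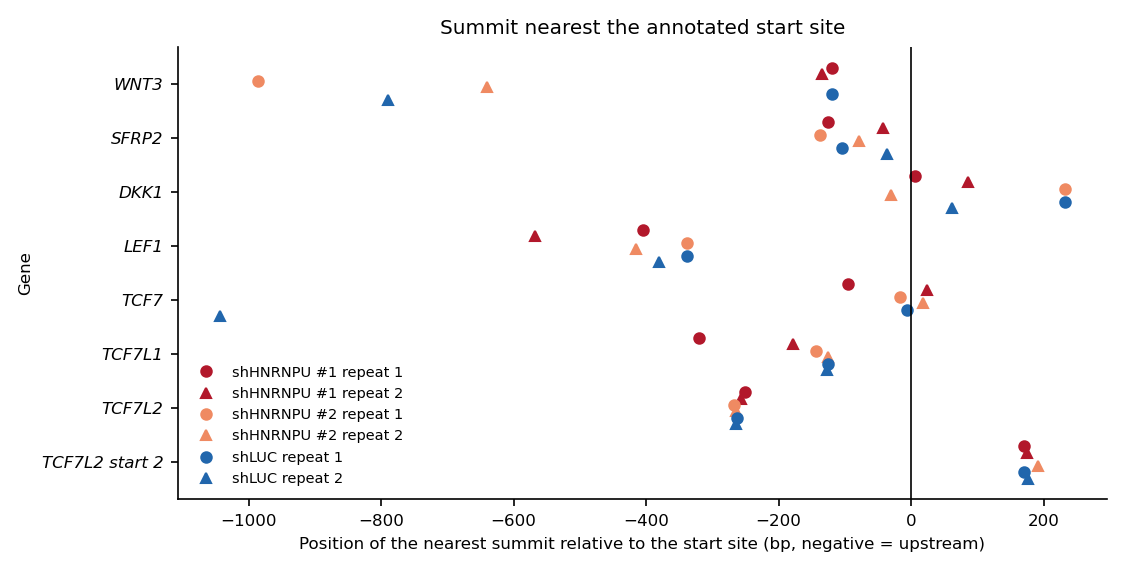
Position in bp of the summit nearest each annotated start (horizontal axis, negative values upstream, vertical line at the start) for the 8 start sites with a summit within 2000 bp, 1 point per library. The 6 points of the first TCF7L2 start fall within 17 bp, while those of WNT3 run from −986 to −119 bp.

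Internal TCF7L2 loci held both of the largest separated decreases. At 113108634, 59 kb from the higher end, percentiles were 71.9, 53.5, 60.9 and 55.9 with shHNRNPU and 78.6 and 75 with shLUC, lower in all 4 by −16.2 on average (60.6 ± 8.15 against 76.8 ± 2.56, exact permutation p = 0.133). At 113047961, 97.7 kb after the first start, they were 38.1, 58.1, 40.8 and 56 against 65.4 and 60.5, a mean difference of −14.7 (48.3 ± 10.3 against 62.9 ± 3.45, exact permutation p = 0.133). By the deposited score neither decrease separated the groups. Scores at 113108634 were 14.3, 8.09, 9 and 9.76 against 17.1 and 14.2, and at 113047961 they were 5.76, 9.14, 5.6 and 9.8 against 11.4 and 9.21. Other internal loci overlapped between the groups, as at 113087502, where shHNRNPU #1 had 93.2 and 92.2, shHNRNPU #2 had 65.8 and 82.7, and shLUC had 82.8 and 63.6.

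In all, 2 of the 118 loci were lost, or 1.69%, against 1.93% of all loci, and 2 were gained, also 1.69%, against 0.88%. Without shLUC repeat 1 the number of lost loci was 12, without shLUC repeat 2 it was 6 and without shHNRNPU #1 repeat 2 it was 4, since fewer libraries then had to share the pattern. The share over all loci was not counted with a library left out. Of the 28 loci called in all 6 libraries, 4 had lower percentiles in every shHNRNPU library, or 14.3%, against 13.9% of 25519 such loci, and 1 had higher ones, or 3.57%, against 10.9%. The shares of lost and of lower loci were thus close to the background, that of gained loci was above it and that of higher loci below it. The last 2 shares rest on counts of 2 and 1. The median difference in percentile was −0.143 over the 28 loci and −0.291 over all shared loci. The median percentile within a library differed by −4.12 between group means over the 28 loci and by −1.25 over all shared loci. The groups overlapped in both, and this was not tested.

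**Figure D4:**
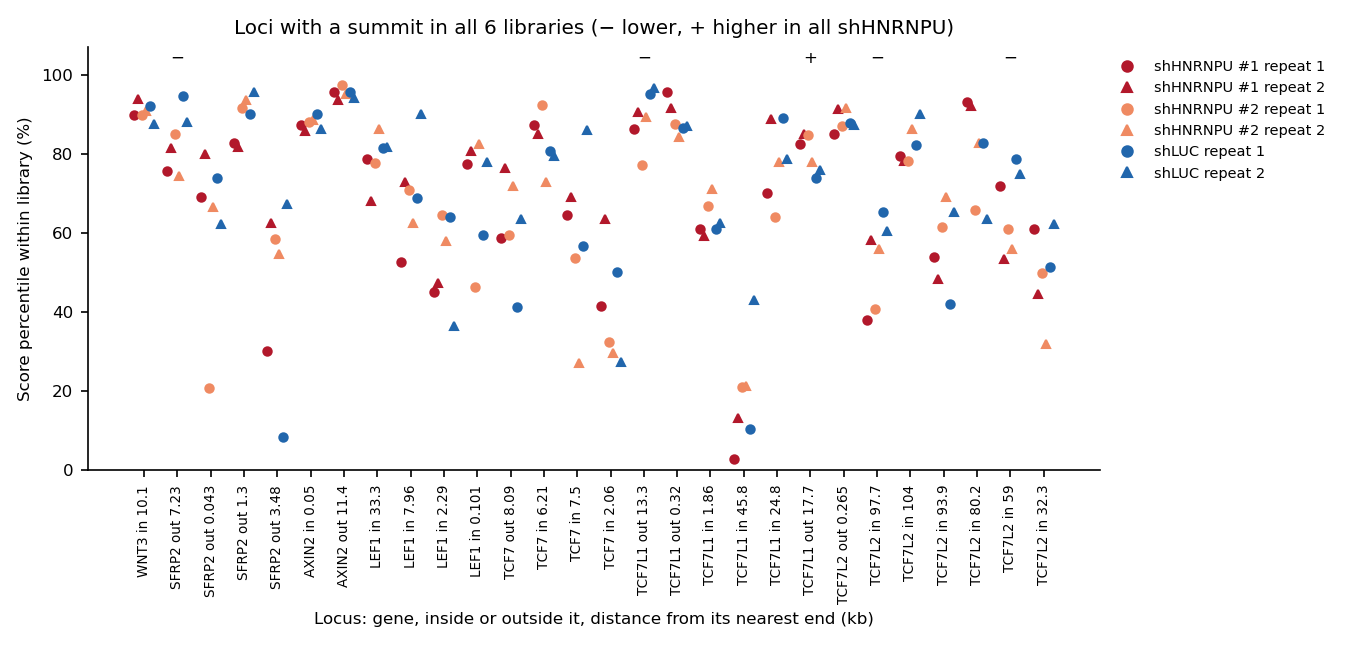
Score percentile within each library (vertical axis) for the 28 loci called in all 6 libraries, 1 column per locus labelled by gene, inside or outside it, and distance in kb from its nearest end, and 1 point per library. Minus signs mark the 4 loci lower and the plus sign the 1 locus higher in every shHNRNPU library, and at the other 23 the groups overlap.

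Beyond the 10 genes, 74 further genes of the pathway were counted in the same way, and each had a summit in every library. So had 17395 of the 18729 protein-coding genes with a summit. Summit numbers were lower in all 4 shHNRNPU libraries at 2 of the 74, or 2.7% against a background of 3.92%, and higher at 5, or 6.76% against 3.55%. The median difference was 0.25 summits over the list and 0 over all genes with a summit. Higher numbers were found at 1 of 18 ligands, 1 of 9 genes of the R-spondin branch, 2 of 12 cytoplasmic genes and 1 of 2 target factors. Lower ones were found at 1 of 3 genes of ligand secretion and 1 of 11 receptors and co-receptors. Neither direction was found among 10 inhibitors and 9 nuclear cofactors.

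ZNRF3, a membrane ligase that removes Frizzled receptors and is itself induced by WNT signals, had 15 and 11 summits with shHNRNPU #1, 13 and 15 with shHNRNPU #2, and 8 and 8 with shLUC. The difference of 5.5 (13.5 ± 1.91, SD, n = 4, against 8 with no spread, n = 2, exact permutation p = 0.133) was the largest of the list. Chromosome 22, which carries it, held 1.82 ± 0.109% of summits with shHNRNPU and 1.49 ± 0.0357% with shLUC, and the part of this shift was not tested. With scores of at least 5 the numbers were 9, 8, 5 and 8 against 5 and 3, and with lists of one size 13, 8, 10 and 15 against 8 and 7, each with a tie between the groups.

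SP5, a zinc-finger factor induced by beta-catenin, had 3, 4, 2 and 3 summits against 1 and 1, a difference of 2 (exact permutation p = 0.133). With scores of at least 5 the numbers were 3, 2, 2 and 3 against 0 and 0, and SP5 was then the only one of the 7 separated genes whose groups still did not overlap. Its chromosome, 2, had a lower share of summits with shHNRNPU (7.83 ± 0.0637%) than with shLUC (8.01 ± 0.0417%). This is the opposite direction to SP5, and the part of the shift was not tested.

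WNT3A, a ligand, had 5, 6, 5 and 6 summits against 4 and 4. DVL1, which relays the receptor signal, had 3 in each shHNRNPU library against 2 and 2, and CTNNB1, which encodes beta-catenin, had 2 in each against 1 and 1. PORCN, which acylates WNT ligands, was lower, with 3 in each shHNRNPU library against 5 and 4, and so was the receptor FZD4, with 1, 2, 1 and 2 against 3 and 3. These differences were of 1 or 1.5 summits, and each had the smallest exact permutation p, 0.133. In all 4 shHNRNPU libraries the share of summits was higher on chromosomes 1 (WNT3A and DVL1) and 11 (FZD4). It was lower on chromosomes 3 (CTNNB1) and X (PORCN), and the part of these shifts was not tested. Counts over the 20 kb windows, with the score minimum, with lists of one size and over the other 3 windows make 6 settings. The groups did not overlap in 5 of them at SP5 and at CTNNB1, in 4 at ZNRF3, in 3 at WNT3A and at FZD4 and in 2 at DVL1. Beyond the 20 kb windows, the share of all genes called apart was not counted. PORCN was lower in 3 settings and higher in 1, the gene body, with 1 summit in each shHNRNPU library and none in shLUC, and the difference at DVL1 turned to −0.25 in the gene body.

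**Figure D5:**
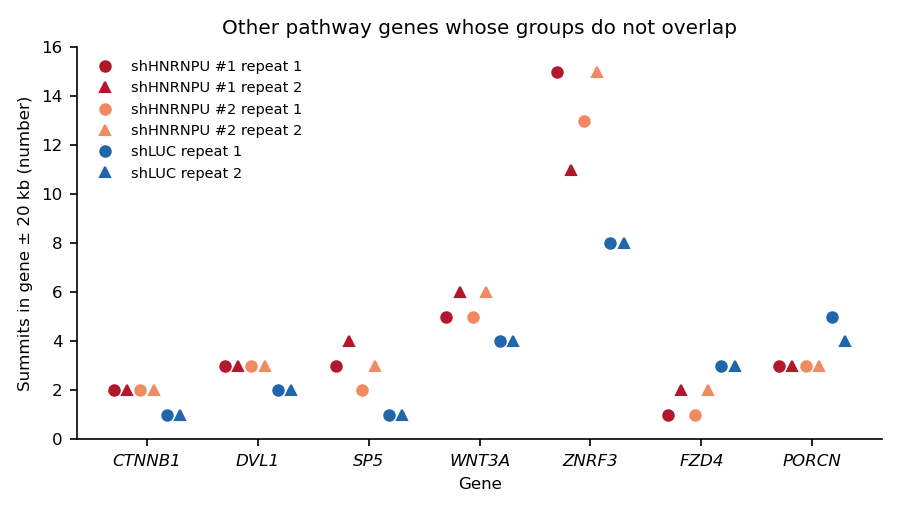
Number of summits inside or within 20 kb of the 7 further pathway genes whose groups did not overlap (vertical axis), 1 point per library. ZNRF3 shows the widest gap, 11 to 15 with shHNRNPU against 8 and 8 with shLUC, and FZD4 and PORCN are the 2 genes with fewer summits with shHNRNPU.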

How the data were processed

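ATAC-seq was measured in 6 libraries, grouped by the sample titles. The paper linked to the series reports different experiments and served for style alone. Per the labels, submitters' processing notes name cutadapt, Bowtie2, SAMtools, MACS2, deepTools and hg38, without versions or roles. The authors deposited 1 list of summits per library, each with a score that, by the layout and values, is −log10 of a q-value. Peaks were called per library, scores were not normalized between libraries, and read depth is unknown.

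Gene bounds and promoter windows were RefSeq GRCh38.p14. The gene table gives no strand or exons, so loci are placed inside or outside a gene. Within each library scores were ranked as percentiles. The best-ranked summit took all summits within 250 bp, and this was repeated on the rest, and presence meant a summit no more than 250 bp from the centre, so 1 summit can count at 2 neighbouring loci. On simulated data 2999 of 2999 loci were returned with their pattern. The simulated loci lay far apart, with summits well inside the match distance. This checked the steps only and says nothing of neighbouring loci that share a summit. Means were compared by the exact permutation test, two-sided, over 15 choices of 2 control libraries. P-values measure only the spread between these libraries. No test was made over the gene list. Named loci were, per gene, those nearest a start or end and of highest mean percentile, the lost and gained ones, and up to 3 separated ones in each direction. Named pathway genes were up to 5 per direction. Other loci are given as examples chosen after their values were seen. The genes, lists and rules were chosen with earlier results of these data known. Alternatives were a score minimum, lists of one size, other windows and distances, deposited scores, leaving out each library and a replicate block. The labels do not say whether repeat numbers pair the libraries, and the main comparisons did not pair them. Analyses used Python 3.11.15, numpy 2.4.6, pandas 2.3.3, scipy 1.17.1 and matplotlib 3.10.9.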

Additional observations from a re-analysis of the deposited data

Results flagged for a closer look

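In 46 sets of 4 shHNRNPU values (summit numbers of the 10 genes, their total and the 7 further genes whose groups did not overlap, and percentiles of the 28 shared loci) the highest or lowest library was compared with the rest by its gap relative to the range, and 5 were found. Chance marks about 1 in 20 sets of continuous values, a rate that does not hold for small counts with ties, where a single step is enough. WNT3 had 4 summits in shHNRNPU #2 repeat 2 and 5 in the other 3 libraries, and TCF7 had 5 in shHNRNPU #1 repeat 2 and 6 in the others, each a difference of 1 summit. TCF7L2 had 17 in shHNRNPU #1 repeat 1 and 11 or 12 in the others. At the LEF1 locus 101 bp inside the higher end the percentile was 46.2 in shHNRNPU #2 repeat 1 and 77.4 to 82.6 in the others. At the TCF7L2 locus 113054048 it was 86.3 in shHNRNPU #2 repeat 2 and 78.1 to 79.5 in the others.

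Among the same genes and loci, both libraries of 1 hairpin lay on the opposite side of the shLUC mean from both libraries of the other at 6, and these differences between hairpins were not tested. SFRP1 had 3 and 4 summits with shHNRNPU #1 and 1 and 2 with shHNRNPU #2 around a shLUC mean of 2.5, a difference of 2. TCF7L1 had 16 and 14 against 12 and 13 around 13.5, a difference of 2.5. At the SFRP2 start, shHNRNPU #1 percentiles were 69 and 80 and those of shHNRNPU #2 were 20.8 and 66.6 around 68.1, a difference of 30.8. At the LEF1 locus nearest the start they were 45.1 and 47.3 against 64.4 and 57.9 around 50.3, a difference of −15. At the TCF7 locus 2.06 kb from the higher end they were 41.6 and 63.4 against 32.5 and 29.6 around 38.7, a difference of 21.4. At the TCF7L1 locus 1.86 kb after the start they were 61 and 59.2 against 66.9 and 71 around 61.7, a difference of −8.85.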

How the results depend on the processing

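The difference in total summits, 0.25, turned to −1.25 with scores of at least 5 and was 0 in the gene body. It was 1 or 1.25 with lists of one size and other windows. Each move was less than 8.06, the SD of the shHNRNPU totals in the 20 kb windows, where 1 library had 73 summits. Gene-body and score-filtered totals are smaller than these, so a move below that SD says little about stability. The difference of 0 at SFRP1 ranged from −1 with lists of one size to 1 within 50 kb. The settings for the further pathway genes and for single loci were chosen after seeing the data. Of the 10 genes, 1 was lower with scores of at least 5 (FZD7) and in the gene body or within 5 kb (WNT3), and 1, AXIN2, was higher with lists of one size, in the gene body, within 5 kb and within 50 kb. Of the further genes, 0 were lower with scores of at least 5 and 1 in the gene body or within 5 kb, and 9 were higher within 50 kb. Shares over all genes and all loci were counted for the main setting only. The numbers under other settings, or with a library left out, thus have no background beside them. Lost loci numbered 1 in the gene body, within 5 kb and with absence judged within 1000 bp. Gained loci numbered 1 with lists of one size, with match distances of 100 or 500 bp and with absence within 1000 bp. Shared loci numbered 18 in the gene body and 16 with 100 bp. Lower percentiles were found at 2 loci in the gene body, within 5 kb or by the deposited score, the last without the TCF7L2 loci, and higher ones at 0 in the gene body, within 5 kb or with 100 bp and at 2 within 50 kb or with 500 bp. At other single genes, differences that turned sign were 0.5 at WNT3 and 0.25 at TCF7 with scores of at least 5, 0.5 at SFRP2 and −0.5 at TCF7L2 with lists of one size, 0.75 in the gene body or within 5 kb and 1.25 within 50 kb at FZD7, and −0.75 with scores of at least 5 and −0.25 within 50 kb at TCF7L1, and the cause was not tested. Leaving out each library gave a difference in total summits of −3.67 to 3.25, 0 to 1 genes lower and 0 to 1 higher, 2 to 7 further genes lower and 6 to 13 higher, 2 to 12 loci lost and 2 to 4 gained, 28 to 31 shared loci, and lower percentiles at 4 to 11 and higher ones at 1 to 5. It turned the difference to 0.25 at LEF1 without shLUC repeat 2, to 0.75 at TCF7, −0.25 at TCF7L1 and −1.25 at TCF7L2 without shLUC repeat 1, and to −0.5 at TCF7L1 and −1.17 at TCF7L2 without shHNRNPU #1 repeat 1. Without each library in turn the difference ranged from 1.83 to 3.17 at AXIN2, −1.75 to 0.25 at LEF1, −1.25 to 0.75 at TCF7, −0.5 to 0.833 at TCF7L1 and −1.25 to 1.75 at TCF7L2. Percentiles of repeats with the same number did not deviate together (r from −0.0438 to 0.00125 over 25519 loci). Ranking within a library removes shifts of the whole library, so this cannot tell whether same-numbered repeats were handled together. With a replicate block, 9 assignments allow no p below 0.222, and AXIN2 had p = 0.444 by the exact permutation test. The calls do not use repeat numbers, so a block could not change them. Read depth is unknown, so closed chromatin and too few reads cannot be told apart at a locus that was not called.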
